A study of Mus musculus with 9 samples.

Results

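The genes described here are the 9 that build and mark midbrain neurons using gamma-aminobutyric acid (GABA), the main inhibitory transmitter of the brain. They were chosen by name and role, with earlier results of these data known, as 6 selector transcription factors (Gata2, Gata3, Tal1, Tal2, Helt and Sox14) and 3 transmitter genes (Gad1, Gad2 and Slc32a1), and are 9 of the 51912 genes in the table. RNA of micro-dissected midbrains of C57Bl/6 mouse embryos at E14.5 (embryonic day) had been sequenced in 9 libraries, each made from a pooled pair of midbrains. There were 3 libraries labelled wild type (Nkx2.9+/+), 3 labelled heterozygous (Nkx2.9LacZ/+) and 3 labelled knock-out (Nkx2.9LacZ/LacZ). The LacZ allele is a germline knock-in whose nuclear LacZ reporter took the place of the initial exon of Nkx2.9, a homeobox gene of ventral neural progenitors, and no other allele or agent was named. The question was which transcripts of the midbrain depend on Nkx2.9.

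As background, many GABAergic neurons of the midbrain arise from progenitors of its ventricular zone. As precursors leave the cell cycle, Gata2, a zinc finger factor, directs them to the GABAergic instead of the glutamatergic fate, and Helt, a basic helix-loop-helix repressor, acts in the progenitors. Gata3, the basic helix-loop-helix factors Tal1 and Tal2, and the HMG-box factor Sox14 follow in the young neurons, where GATA and Tal proteins sit in shared complexes held together by Ldb1 and Lmo proteins. Gad1 and Gad2 encode the glutamate decarboxylases that make GABA, and Slc32a1 encodes the carrier that loads it into synaptic vesicles.

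Libraries are numbered 1 to 9 by their column in the deposited table, since the columns carry a genotype but no replicate number: 1 to 3 are labelled LacZ/LacZ, 4 to 6 LacZ/+ and 7 to 9 +/+. Reads on genes ranged from 1692963 to 5942192 a library, and libraries 7 (1692963) and 4 (2584074) were the shallowest and correlated least with the rest (median Spearman 0.967 and 0.958, against 0.980 to 0.984 for the other 7). The targeted gene gave 3 to 6 reads in the LacZ/LacZ libraries, 0 to 7 in the LacZ/+ and 0 to 2 in the +/+ libraries. These few reads were not lower in the libraries labelled LacZ/LacZ, and all 3 of these had more than any library labelled +/+, which goes against the order that the labels would give. The counts cover the whole gene, part of which the allele leaves in place, so they do not settle the genotypes, and every direction below, that of Pax7 and the serotonergic genes included, rests on the labels alone. LacZ/LacZ, LacZ/+ and +/+ stand for libraries so labelled throughout. Xist was at 4607 to 5182 normalized counts in the 3 LacZ/LacZ libraries, with at most 3 reads on 4 Y-linked genes together, while LacZ/+ and +/+ each held 2 libraries with 372 or more such reads and 1 with at most 4. Sex thus moved with the homozygous label, and a fit with Xist as a covariate is given among the alternatives. Labels give no separate litters, so p-values measure the spread between these libraries, and in dissected tissue fewer cells of a type and less RNA per cell cannot be told apart.

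The positions of the 9 genes in GRCm38 (GENCODE M21) were spread over 5 chromosomes. On chromosome 2 lay Gata3 (9857078 to 9890034, minus strand), Gad2 (22622205 to 22693874, plus strand), Gad1 (70553072 to 70602014, plus strand) and Slc32a1 (158610767 to 158615748, plus strand). On chromosome 4 lay Tal2 (53779705 to 53788712) and Tal1 (115056426 to 115071755), both on the plus strand. Gata2 lay on chromosome 6 (88193891 to 88207032, plus strand), Helt on chromosome 8 (46292039 to 46294671, minus strand) and Sox14 on chromosome 9 (99874106 to 99876170, minus strand). All 9 are annotated as protein-coding. The strand setting of the counting was not given in the sources used here, so reads of an antisense neighbour could be shared. The opposite-strand Gm13256 overlapped Gata3 exons by 155 bases with 47 reads over the 9 libraries, and Gm14205 overlapped Slc32a1 exons by 697 bases with 10 reads, against 4880 reads for Gata3 and 2448 for Slc32a1.

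GATA factors bind short sequences with GATA at their core and Tal and Helt proteins bind E-boxes. The 250 bases before the RefSeq transcript starts of the members were therefore searched for both. Some of these starts lay inside the gene positions given above, such as that of Gad1 at 70562129. The windows of Gad1 and Gad2 and the Gata2 window from 88198414 held exon bases of the gene itself. That of Gata3 held exon bases of Gm13256. A GATA sequence (GATAA or GATAG, preceded by an A or a T, on either strand) was found in 3 of 11 start windows of the 9 genes (27.3%), and in 26.5% of the 32851 windows of all genes. An E-box of the form CAGNTG on either strand was found in 5 of 11 (45.5%), and in 44.8% of all windows. These shares rest on 11 windows and were not tested against each other. The members' windows were richer in G and C, with a median of 63.6% against 52.4%, and held a median of 17 CpG against 6. The 3 windows with a GATA sequence are shown, with that of Helt as one holding an E-box alone, because they hold letters of the kind that the group's own factors are known to bind. They run 5′ to 3′ on the strand of the gene, come from RefSeq (GRCm38.p6), end at the base before the start, and have the matching letters in capitals.
Tal1, chr4:115056176-115056425, plus strand: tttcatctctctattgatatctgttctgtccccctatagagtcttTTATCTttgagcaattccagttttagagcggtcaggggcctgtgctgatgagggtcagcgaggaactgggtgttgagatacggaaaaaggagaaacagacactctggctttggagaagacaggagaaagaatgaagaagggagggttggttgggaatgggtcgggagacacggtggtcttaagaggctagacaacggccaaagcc
Sox14, chr9:99876171-99876420, minus strand: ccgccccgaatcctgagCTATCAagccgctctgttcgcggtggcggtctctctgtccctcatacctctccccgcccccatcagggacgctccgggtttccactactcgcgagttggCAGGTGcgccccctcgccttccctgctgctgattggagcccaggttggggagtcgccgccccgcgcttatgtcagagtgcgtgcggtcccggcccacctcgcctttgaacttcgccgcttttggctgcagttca
Slc32a1, chr2:158610508-158610757, plus strand: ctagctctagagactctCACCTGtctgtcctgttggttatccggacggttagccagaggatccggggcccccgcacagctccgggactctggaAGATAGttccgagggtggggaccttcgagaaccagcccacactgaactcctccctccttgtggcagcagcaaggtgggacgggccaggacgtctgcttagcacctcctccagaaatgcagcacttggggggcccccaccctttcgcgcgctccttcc
Helt, chr8:46294672-46294921, minus strand: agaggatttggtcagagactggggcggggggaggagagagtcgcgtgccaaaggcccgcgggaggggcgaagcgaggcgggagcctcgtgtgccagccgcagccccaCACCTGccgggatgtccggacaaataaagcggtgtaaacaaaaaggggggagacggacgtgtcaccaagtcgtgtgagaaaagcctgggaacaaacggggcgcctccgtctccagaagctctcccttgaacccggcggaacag
In Tal1 the GATA match began 205 bases before the start. In Sox14 a GATA match lay 233 bases and an E-box 134 bases before it. In Slc32a1 the E-box lay at 233 and the GATA match at 157 bases, and part of this window is an exon of the opposite-strand transcript Gm14204. In Helt the E-box lay 143 bases before the start. The other windows with an E-box were those of Gad1 and Gad2, at 104 and 76 bases. No binding was measured, and a match is a description of the letters only.

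All 9 genes were detected and all 9 passed the minimum mean normalized count of 5 used for testing. A normalized count is the number of reads divided by a size factor of its library. To compare genes with each other, reads were also divided by the exon length and by the reads of the library (RPKM). On that scale, with the union of annotated exons as the length, the order of the mean levels over 9 libraries was Gad2 33.2 ± 2.91 (SD), Gata3 29.9 ± 2.39, Tal1 24.1 ± 2.20, Slc32a1 21.7 ± 4.04, Sox14 17.2 ± 2.81, Gad1 17.0 ± 1.78, Tal2 5.51 ± 2.40, Gata2 4.27 ± 0.886 and Helt 0.847 ± 0.527 RPKM. Some neighbours in this order did not separate. Gad2 exceeded Gata3 in 7 of 9 libraries, Tal1 exceeded Slc32a1 in 7, Sox14 exceeded Gad1 in 5 and Tal2 exceeded Gata2 in 5. Gata3 exceeded Tal1 in 9 of 9, Slc32a1 exceeded Sox14 in 9, Gad1 exceeded Tal2 in 9 and Gata2 exceeded Helt in 9. On this scale the Gata3 and Tal1 levels lay among those of the transmitter genes, and the levels of Gata2 and Tal2 lay below all 3 of them.

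**Figure D1:**
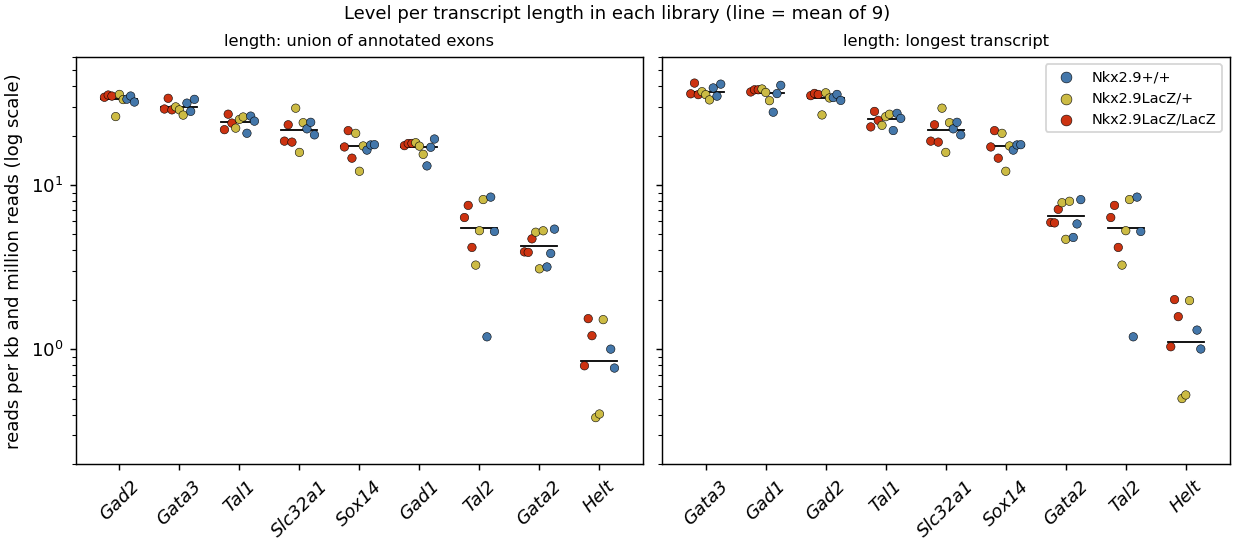
RPKM of the 9 genes (log axis), each point 1 library coloured by its genotype label and each line the mean of 9 libraries, with the exon union (left) or the longest transcript (right) as the length. Helt stood lowest under both lengths (its library at 0 is not drawn). With the longest transcript Gad1 moved from the sixth to the second place, and the highest mean was that of Gata3 instead of Gad2.

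Within both pairs of related selectors one member was several times higher than the other. The Gata3 level per length was a median of 7.31 times that of Gata2, from 5.05 to 9.92 over the 9 libraries, and the Tal1 level was a median of 4.69 times that of Tal2, from 3.11 to 17.3. The highest Tal1 to Tal2 ratio came from library 7, in which Tal2 had 6 reads. The Gad2 level was a median of 1.97 times that of Gad1, from 1.44 to 2.55. This last ratio depended on the length: annotated Gad1 exons span 7639 bases but its longest transcript 3601, and with the latter the median ratio was 0.951 and only 2 of 9 libraries had Gad2 above Gad1. With the longest transcript the Gata3 to Gata2 ratio was 5.99 and the Tal1 to Tal2 ratio 4.87, both above 1 in 9 of 9 libraries. Ratios by genotype overlapped: Gata3 over Gata2 was 6.09 to 8.66 in LacZ/LacZ, 5.05 to 9.27 in LacZ/+ and 6.16 to 9.92 in +/+ libraries.

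No member was called different between the genotypes. In LacZ/LacZ against +/+, limma gave an unadjusted p under 0.05 for 0 of the 9 genes, against 2.6% of the 16993 genes tested, and in 0 of 9 did the values of the genotypes not overlap, against 9.52%. In LacZ/+ against +/+ the counts were 0 of 9 in both respects, against 2.78% and 6.91% of all genes. In LacZ/LacZ against LacZ/+ they were 0 of 9 again, against 2.64% and 8.71%. edgeR and DESeq2 on the recovered reads also gave 0 of 9 in each comparison, as did limma with Xist as a covariate. The lowest unadjusted p of a member in limma was 0.113, 0.280 and 0.276 in the 3 comparisons, in that order, and the lowest p of a member after adjustment over all genes was 1.00, 1.00 and 0.999. In each comparison 6 members had a positive and 3 a negative log2 fold change. The median over the members was 0.017, 0.025 and 0.089 on the log2 scale, beside 0.011, -0.0069 and 0.017 over all genes tested. The 3 comparisons share their libraries and are not independent of each other. Exact two-sided permutation tests of 3 libraries against 3, which cannot go below 0.1, gave 0.2 or more for every member.

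**Figure D2:**
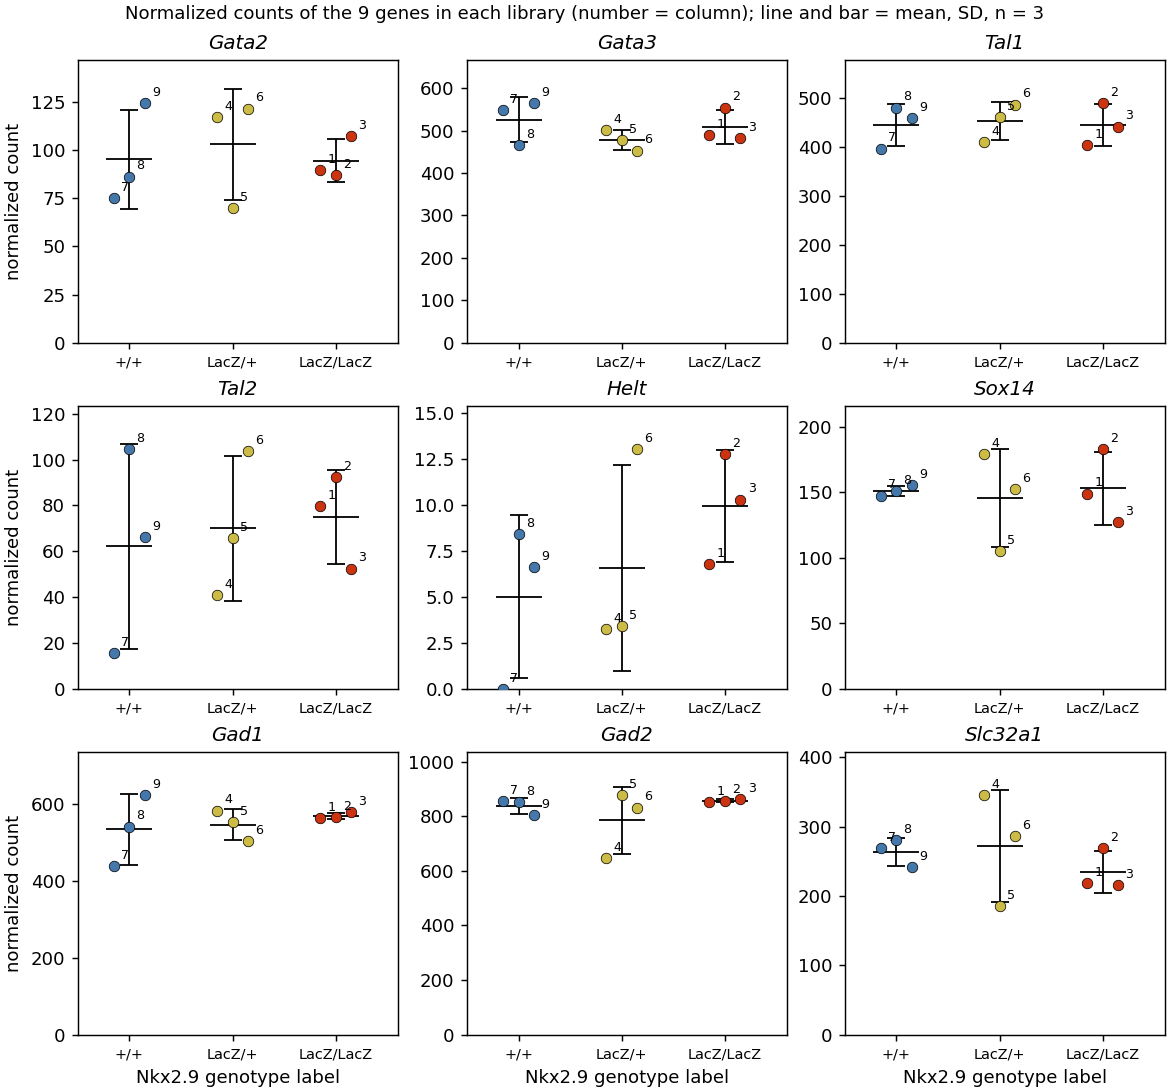
Normalized counts of each gene (vertical axes from 0) by genotype label, each point 1 library with its column number, with the mean and SD of 3 libraries. The genotypes overlap in all 9 genes, and Tal1, Tal2, Helt and Gad1 have their lowest value in library 7, the shallowest.

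Gata2, which sets the GABAergic fate, had 75.0, 86.3 and 124 normalized counts in the +/+ libraries, 117, 70.0 and 122 in LacZ/+, and 89.6, 86.9 and 107 in LacZ/LacZ (each triple in column order). The 3 LacZ/LacZ values lay inside the +/+ range. Its LacZ/LacZ over +/+ fold was 1.01 (95% confidence interval 0.715 to 1.43, on normalized count + 1, as are all folds here).

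Gata3, its follower in differentiating neurons, had 548, 465 and 565 normalized counts in +/+, 500, 478 and 453 in LacZ/+ and 489, 554 and 482 in LacZ/LacZ. All 9 values fell within 1.25-fold of each other. The fold was 0.968 (0.808 to 1.16) for LacZ/LacZ and 0.910 (0.760 to 1.09) for LacZ/+ over +/+.

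Tal1 had 396, 479 and 458 normalized counts in +/+, 409, 460 and 485 in LacZ/+ and 403, 488 and 441 in LacZ/LacZ. It had the narrowest spread of the 9 genes, with 1.23-fold between its lowest and highest library. The LacZ/LacZ over +/+ fold was 0.999 (0.826 to 1.21), so that losses below 0.826-fold lie outside the interval.

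Tal2, the other Tal factor of the midbrain, had 15.5, 105 and 66.2 normalized counts in +/+, 40.7, 65.7 and 104 in LacZ/+ and 79.8, 92.4 and 52.4 in LacZ/LacZ. Its values differed 6.74-fold within the +/+ libraries alone. The LacZ/LacZ over +/+ log2 fold change was 0.59 (SE 0.50, interval -0.48 to 1.66, unadjusted p = 0.257 in limma, exact permutation p = 0.7), and without library 7 it was -0.19. Without library 8 it was 1.15, with an unadjusted p of 0.0303 and an adjusted p of 0.921 or more over the settings tried, so that the sign and size of this difference rested on single +/+ libraries.

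Helt, the progenitor repressor, was close to the detection limit, with 0 to 16 reads a library. Its values were 0, 8.42 and 6.62 normalized counts in +/+, 3.26, 3.42 and 13.1 in LacZ/+ and 6.77, 12.8 and 10.3 in LacZ/LacZ. The 0 of library 7 allows up to 7.76 normalized counts (3 reads, counting error only), which is above the 6.62 of library 9. The LacZ/LacZ over +/+ log2 fold change was 1.36 (SE 0.81, interval -0.36 to 3.08, p = 0.113 in limma, exact permutation p = 0.2). It was 1.95 without library 8, with an unadjusted p of 0.0433, and 0.33 without library 7. The interval as a fold ran from 0.779 to 8.45.

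Sox14, a factor of later GABAergic precursors, had 147, 151 and 155 normalized counts in +/+, 179, 105 and 153 in LacZ/+ and 149, 183 and 127 in LacZ/LacZ. The +/+ libraries were within 1.05-fold of each other, whereas the other genotypes spread around them to either side. The fold was 1.00 (0.751 to 1.34) for LacZ/LacZ and 0.941 (0.706 to 1.25) for LacZ/+ over +/+.

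Of the transmitter genes, Gad1 had 437, 540 and 622 normalized counts in +/+, 582, 552 and 502 in LacZ/+ and 562, 565 and 578 in LacZ/LacZ. The LacZ/LacZ libraries were within 1.03-fold of each other and lay between the +/+ values. The LacZ/LacZ over +/+ fold was 1.08 (0.884 to 1.31).

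Gad2 had 856, 852 and 803 normalized counts in +/+, 645, 877 and 831 in LacZ/+ and 851, 857 and 863 in LacZ/LacZ. Apart from library 4, at 645, its values lay between 803 and 877. The fold was 1.02 (0.854 to 1.23) for LacZ/LacZ and 0.930 (0.775 to 1.12) for LacZ/+ over +/+. Without library 4 the log2 fold change of LacZ/+ over +/+ moved from -0.11 to 0.029.

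Slc32a1, the vesicular carrier, had 269, 281 and 241 normalized counts in +/+, 345, 185 and 286 in LacZ/+ and 219, 269 and 216 in LacZ/LacZ. The highest and the lowest of its 9 values were both in LacZ/+ libraries, 4 and 5. The LacZ/LacZ over +/+ fold was 0.887 (0.670 to 1.17). Against LacZ/+ the log2 fold change was -0.18 (interval -0.58 to 0.23). That value became -0.43, with an unadjusted p of 0.0187 and an adjusted p of 0.874 or more over the settings tried, when library 5 was left out, and 0.018 when library 4 was left out.

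**Figure D3:**
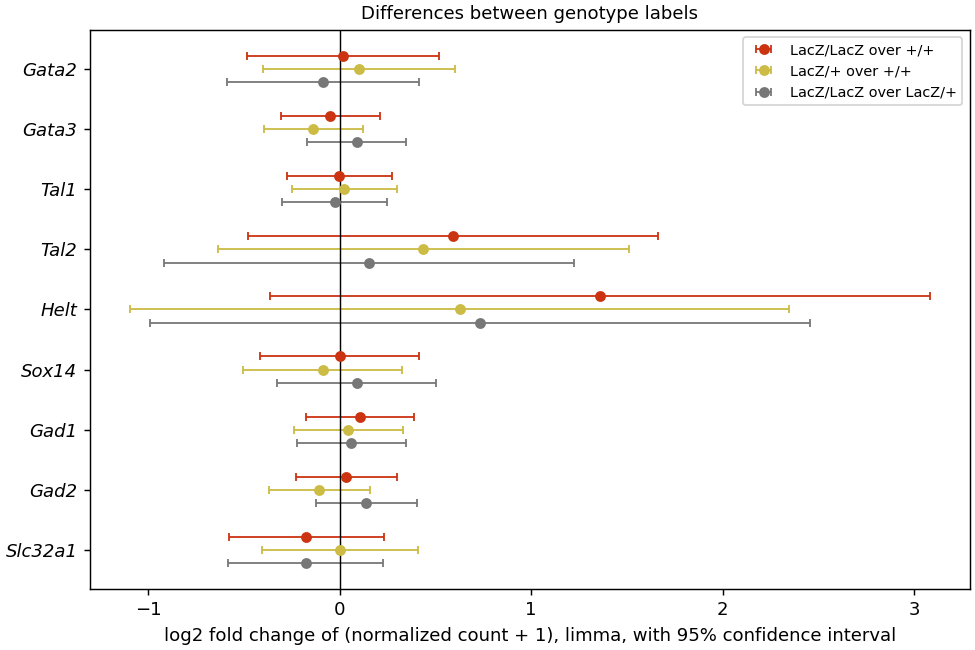
Log2 fold changes of the 9 genes in the 3 comparisons of genotype labels (limma, points) with 95% confidence intervals (bars). Every interval includes 0, and those of Gata3, Tal1, Gad1 and Gad2 are the narrowest, while those of Tal2 and Helt span more than 2 log2 units.

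The coefficient of variation within a genotype was 30.4% to 88.4% for Helt and 27.3% to 71.9% for Tal2, and 8.62% to 9.78% for Tal1. The variance within genotypes, divided by that expected from counting reads alone, a ratio that grows with the number of reads and so does not rank the genes, was 11.9 for Tal2 and 9.77 for Slc32a1, 5.66 for Gata2, 5.05 for Sox14, 5.01 for Gad2, 4.43 for Gad1, 3.88 for Gata3, 3.30 for Tal1 and 2.48 for Helt. Summed over the 3 transmitter genes, the libraries ranged only from 1562 to 1691 normalized counts (1.08-fold), with LacZ/LacZ at 1631 to 1691, LacZ/+ at 1573 to 1619 and +/+ at 1562 to 1673. Summed over the 6 selectors they ranged from 1182 to 1418 (1.20-fold). The sum is mostly Gad2 and Gad1, and the library high in Slc32a1 was low in Gad2.

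Across the 9 libraries, 36 pairs of members were compared on log2(normalized count + 1), of which 22 had a positive and 14 a negative Pearson r, with a median r of 0.11. After adjustment over the 36 pairs, 0 passed at 0.05 by either coefficient. The highest was that of Helt and Tal2, both basic helix-loop-helix genes (r = 0.90, exact permutation p = 0.00543, adjusted 0.103, and Spearman rho = 0.75, exact permutation p = 0.0255, adjusted 0.280). It fell to r = 0.42 without libraries 4 and 7, which were both the shallowest and the farthest from the median of Helt. Depth and distance were not separated. Slc32a1 and Sox14 had r = 0.82 (exact permutation p = 0.00859, adjusted 0.103, and rho = 0.63, exact permutation p = 0.0760, adjusted 0.391), with r = 0.53 without libraries 4 and 5, those farthest from the median, and 0.81 without 4 and 7. Tal1 and Tal2 had r = 0.75 (exact permutation p = 0.00786, adjusted 0.103, and rho = 0.75, exact permutation p = 0.0255, adjusted 0.280), with r = 0.96 without libraries 1 and 7, the farthest, and 0.49 without 4 and 7. Among negative pairs, Gad2 and Slc32a1 had r = -0.69 (exact permutation p = 0.0341, adjusted 0.246, and rho = -0.68, exact permutation p = 0.0503, adjusted 0.362), with r = -0.76 without libraries 4 and 9, the farthest, and -0.46 without 4 and 7. Gad2 and Gata2 had r = -0.54 (exact permutation p = 0.0882, adjusted 0.529, and rho = -0.73, exact permutation p = 0.0311, adjusted 0.280), with r = -0.71 without libraries 4 and 9 and -0.81 without 4 and 7. Pairs share library and depth, and Gata2 with Gata3 had an r of -0.040 and Gad1 with Gad2 one of -0.30.

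The genes whose values over the 9 libraries were most like the mean standardized profile of the 3 transmitter genes were Gm43336 (r = 0.94), 1700012D14Rik (0.94), Letm2 (0.93), Gm43610 (0.93) and Gm38082 (0.93). For the 6 selectors they were Gm43610 (0.94), Gm38082 (0.93), Actl6a (0.92), Fam174a (0.92) and Ctsc (0.90). These are the highest correlations of all genes tested, over 9 libraries, and none is a gene of the GABA lists used here.

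The cofactors and progenitor factors of the GABAergic lineage all passed the minimum count. Among 21 such genes, the unadjusted p was under 0.05 for 1 in LacZ/LacZ against +/+ (2.6% over all genes) and 0 in the other comparisons. The log2 fold change was negative for 15 of the 21 in LacZ/LacZ against +/+ (median -0.074), 17 in LacZ/+ against +/+ and 11 in LacZ/LacZ against LacZ/+, beside 8100, 8737 and 7973 of the 16993 genes tested. The 2 highest were Ldb1, the bridging protein of GATA and Tal complexes (838 ± 61.1 normalized counts in LacZ/LacZ and 847 ± 54.2 in +/+, SD, n = 3), and Tcf12, an E-protein partner of Tal factors (698 ± 36.7 and 680 ± 98.8). Pax7, a factor of the dorsal midbrain, was the one with a low p, with 156, 229 and 135 normalized counts in LacZ/LacZ, 300, 176 and 198 in LacZ/+ and 318, 254 and 221 in +/+. The LacZ/LacZ and +/+ values of Pax7 overlapped, and the log2 fold change between the libraries so labelled was -0.63 (SE 0.22, unadjusted p = 0.0119, adjusted p = 1.00 in limma).

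Genes for GABA uptake, breakdown, chloride balance and the inhibitory synapse gave 13 tested of 15. The 2 highest were Slc38a1, a glutamine carrier of GABAergic neurons (1594 ± 104 in LacZ/LacZ and 1576 ± 92.8 in +/+), and Nlgn2, an adhesion protein of inhibitory synapses (1287 ± 107 and 1350 ± 59.3). Gphn, which encodes gephyrin, the scaffold of inhibitory synapses, was the 1 gene with an unadjusted p under 0.05, in LacZ/LacZ against +/+. It had 458, 443 and 419 normalized counts in LacZ/LacZ, 417, 421 and 438 in LacZ/+ and 347, 390 and 347 in +/+. Both the LacZ/LacZ and the LacZ/+ values lay above the +/+ values without overlap, with a log2 fold change of 0.29 (SE 0.12, unadjusted p = 0.0255, adjusted p = 1.00). For LacZ/+ over +/+ it was 0.24 (unadjusted p = 0.0570, adjusted p = 1.00 in limma). Over all genes 9.52% did not overlap in the first and 6.91% in the second of these comparisons, which share the +/+ libraries.

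Genes that mark GABAergic neurons of other regions were checked beside the members. The forebrain list had 9 of 12 genes tested and 0 with an unadjusted p under 0.05 in any comparison. Its highest was Sp9 (82.2 ± 18.2 normalized counts in LacZ/LacZ and 79.5 ± 3.51 in +/+). The sum of Dlx1, Dlx2, Dlx5, Dlx6 and Dlx6os1, which define forebrain and thalamic-reticular GABAergic cells, varied 44.8-fold over the libraries. It was 132, 21.0 and 118 normalized counts in LacZ/LacZ, 3.26, 129 and 146 in LacZ/+, and 90.5, 98.2 and 14.7 in +/+, so that each genotype held 1 low library (2, 4 and 9). The 3.26 of library 4 lay below the 4.89 normalized counts that 3 reads make there, so the 44.8-fold is only approximate. Over the same libraries the transmitter sum varied 1.08-fold, and libraries 2 and 9, low in Dlx, had 1691 and 1667 and library 4 had 1573, against 1562 to 1673 in the 6 libraries high in Dlx. The part of forebrain cells in the counts of the members was not tested. Lhx8 had 0 reads in all 9. In the hindbrain and cerebellar list 4 of 10 genes were tested and 0 had an unadjusted p under 0.05. Ptf1a, which defines cerebellar GABAergic progenitors, had 0 reads in all 9 libraries, Tfap2b had 1808 ± 288 normalized counts in LacZ/LacZ and 1899 ± 181 in +/+, and Pax8 had 28.0 ± 13.0 and 47.8 ± 14.9.

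**Figure D4:**
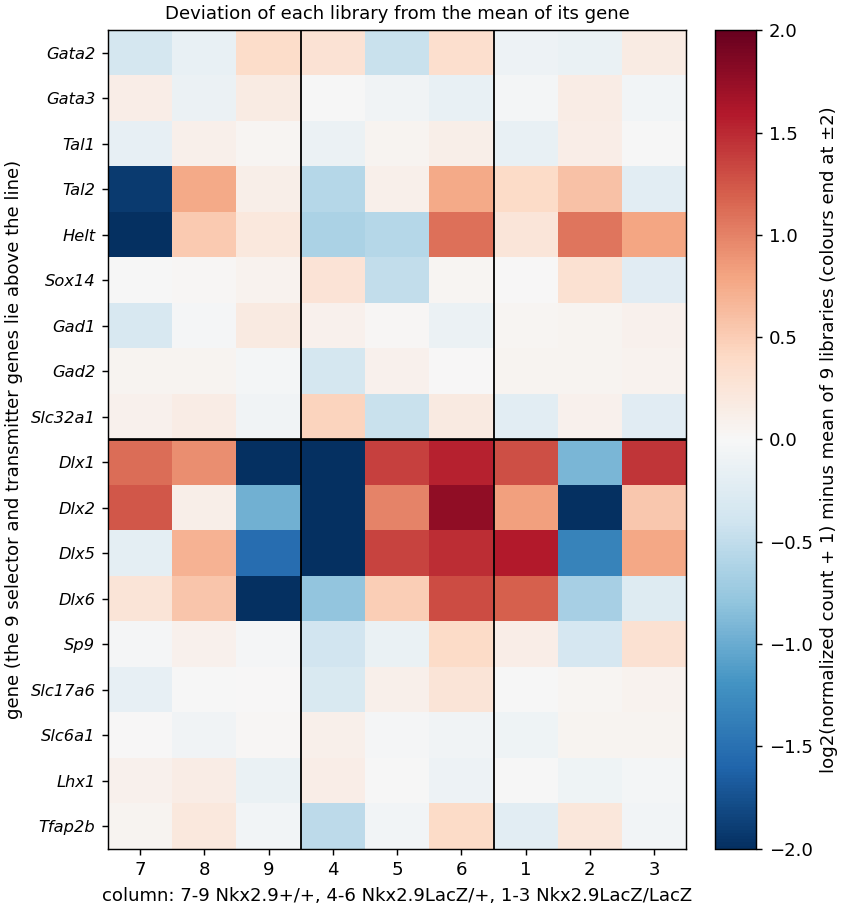
Deviation of log2(normalized count + 1) in each library from the mean of its gene over 9 libraries (colour, ending at 2 either way), with columns ordered by genotype label. The 3 transmitter genes stay pale, Tal2 and Helt are low in library 7, and the Dlx genes are low together in libraries 9, 4 and 2, 1 of each genotype.

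The glutamatergic list, the alternative fate of the same precursors, had 10 of 12 genes tested. Its highest were Lhx9 (799 ± 79.9 in LacZ/LacZ and 813 ± 37.1 in +/+) and Slc17a6, the main vesicular glutamate carrier of the midbrain (801 ± 21.8 and 755 ± 49.3). Only Slc17a8, a minor glutamate carrier, had an unadjusted p under 0.05, in LacZ/LacZ against +/+ (log2 fold change -0.98, SE 0.41, unadjusted p = 0.0305, adjusted p = 1.00 in limma), at 14.6 to 34.8 against 30.9 to 69.8 normalized counts. The summed normalized counts of Gad1, Gad2 and Slc32a1 divided by those of Slc17a6 were 2.02 to 2.10 in LacZ/LacZ, 1.73 to 2.49 in LacZ/+ and 2.12 to 2.24 in +/+. The LacZ/LacZ ratios lay just below the +/+ ratios, and both lay inside the LacZ/+ range. This difference was not tested.

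Markers of other cells were read as lists. Tal1, Gata2 and their partners also act in blood and vessels. The 12 endothelial genes summed to 790 to 904 normalized counts in LacZ/LacZ, 823 to 919 in LacZ/+ and 771 to 893 in +/+, and 0 of 12 had an unadjusted p under 0.05 in any comparison. The 15 erythroid genes summed to 1574 to 1915, 1648 to 2283 and 1509 to 2221, mostly globins. Of the 15, 10 were tested, and 0 had an unadjusted p under 0.05 in any comparison. Gata1, the defining factor of red cell precursors, had 0 to 2 reads a library. The non-globin genes with the most reads were Alas2 (18 to 73 a library) and Slc4a1 (4 to 37). The part of endothelial and blood cells in the Tal1 and Gata2 counts was not tested. Of 10 dopaminergic genes only Pitx3 had an unadjusted p under 0.05 in LacZ/LacZ against +/+ (log2 fold change -0.71, SE 0.30, unadjusted p = 0.0341, adjusted p = 1.00 in limma). Of 5 serotonergic genes, 3 did (Tph2, Slc6a4 and Gch1, all lower in the libraries labelled LacZ/LacZ, whose label the targeted gene did not check), against 2.6% of all genes tested. Their log2 fold changes were -1.75 for Tph2, -1.07 for Slc6a4 and -0.999 for Gch1, each with an adjusted p of 1.00 in limma. In LacZ/+ against +/+ Gch1 was the only one (unadjusted p = 0.00927, adjusted p = 1.00 in limma), and in LacZ/LacZ against LacZ/+ Tph2 was (unadjusted p = 0.0436, adjusted p = 0.999 in limma). The summed level of that list was 43.8 to 91.5 in LacZ/LacZ, 81.6 to 111 in LacZ/+ and 103 to 155 in +/+. The part of serotonergic cells in the counts of the 9 genes was not tested. In the microglial list C1qb alone had an unadjusted p under 0.05, in LacZ/LacZ against LacZ/+. The pan-neuronal and progenitor lists, with 10 genes tested in each, had 0 in every comparison.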

How the data were processed

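RNA-seq of 9 midbrain libraries was analysed from the deposited table. The authors aligned reads with Hisat2 to GRCm38/mm10, counted them with featureCounts and divided by DESeq2 size factors. The deposited signal is therefore a normalized count per gene. Versions, annotation and strand setting are not given in the sources used here. Their tables of genotype comparisons (fold changes and p-values) were not used.

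Values were whole reads times 1 factor per library for 100% of 210686 values (tolerance 1e-06). limma 3.58.1 in R 4.3.3 was run on log2(normalized count + 1) with a mean-variance trend and all 9 libraries in one fit, two-sided, with Benjamini-Hochberg adjustment over 16993 genes with a mean of at least 5. The pipeline was tested on simulated data. Alternatives included edgeR 4.0.16 and DESeq2 1.42.0 on recovered reads. RPKM used GENCODE M21 exon lengths (51633 identifiers matched, 279 did not), and all 9 genes matched the promoter table by symbol. Figures were drawn with matplotlib 3.10.9.

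The 9 genes and all lists were chosen with earlier results of these data known. Every member is given in every library. Of each list of GABAergic or glutamatergic genes, those with an unadjusted p under 0.05 and the 2 highest means are named, and lists of other cells are given by counts, sums and genes with a low p. The 5 genes most like each profile were ranked by Pearson r. The Dlx sum, Gata1, Alas2, Slc4a1, Ptf1a and Lhx8 were named after their values were seen. A gene that the rule would name in the forebrain list is not reported here.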

Additional observations from a re-analysis of the deposited data

How the results depend on the processing

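No paired analysis was possible because the columns of the table carry no replicate number. Helt had only 0 to 16 reads a library, the parts of depth and of library spread were not separated, and 3 libraries a genotype limit every interval. Counts of members with an unadjusted p under 0.05 stayed at 0 in every setting except on leaving out single libraries, where they ranged from 0 to 2 in LacZ/LacZ against +/+ (Tal2 and Helt, without library 8) and from 0 to 1 against LacZ/+ (Slc32a1, without library 5). The lowest adjusted p of a member in any setting was 0.847.

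Counts of all genes with an unadjusted p under 0.05 moved more. In LacZ/LacZ against +/+ they went from 441 to 1135 with no minimum, 263 with a minimum of 20 and 703 without libraries 4 and 7 (a setting chosen after seeing the data), and from 283 to 827 on leaving out 1 library. In LacZ/+ against +/+ they went from 473 to 1137, 242 and 852 under the same settings, to 280 with only the 6 libraries compared, 264 in DESeq2 and 298 with Xist as a covariate, and from 375 to 933 on leaving out 1 library. In LacZ/LacZ against LacZ/+ they went from 449 to 1132, 288 and 971, and from 293 to 740. The cause of these moves was not tested. An adjusted p under 0.05 was reached by 6 genes in LacZ/LacZ against +/+ without libraries 4 and 7 and by 1 gene in LacZ/+ against +/+ in DESeq2, none of them a member.

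Of 510 fold changes of the members under alternatives, 453 kept their sign and side of the threshold, 54 turned in sign and 3 passed 0.05. The largest value that turned was 0.63 on the log2 scale, and 8 of 27 member values never turned. Helt could not be fitted with a minimum of 20. In LacZ/LacZ against +/+, Gata2 turned to -0.046 in edgeR and -0.045 in DESeq2, Tal1 to 0.012 with upper-quartile scaling and Sox14 to -0.057 with Xist as a covariate. Without libraries 4 and 7, values turned to -0.14 for Gata2, -0.19 for Tal2, -0.016 for Sox14 and -0.029 for Gad1. In LacZ/+ against +/+, Gad1 turned to -0.052 with Xist as a covariate, and without libraries 4 and 7 values turned to -0.17 for Gata2, -0.012 for Tal2, -0.11 for Helt, -0.14 for Gad1, 0.046 for Gad2 and -0.18 for Slc32a1. In LacZ/LacZ against LacZ/+, Sox14 turned to -0.024 with Xist as a covariate, and without libraries 4 and 7 values turned to 0.029 for Gata2, -0.18 for Tal2 and 0.018 for Slc32a1. The cause of these turns was not tested.

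On leaving out 1 library, log2 fold changes of LacZ/LacZ over +/+ ranged from -0.14 to 0.22 for Gata2, -0.13 to 0.0060 for Gata3, -0.082 to 0.067 for Tal1, -0.19 to 1.15 for Tal2, -0.13 to 0.13 for Sox14 and -0.029 to 0.23 for Gad1. Those of LacZ/+ over +/+ ranged from -0.051 to 0.36 for Gata2, -0.056 to 0.094 for Tal1, -0.35 to 0.99 for Tal2, -0.40 to 1.22 for Helt, -0.25 to 0.13 for Sox14, -0.091 to 0.16 for Gad1, -0.19 to 0.029 for Gad2 and -0.19 to 0.26 for Slc32a1. Those of LacZ/LacZ over LacZ/+ ranged from -0.34 to 0.054 for Gata2, -0.097 to 0.042 for Tal1, -0.18 to 0.48 for Tal2, -0.13 to 0.26 for Sox14 and -0.43 to 0.018 for Slc32a1.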
